A study of Caenorhabditis elegans with 4 samples.

Results

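The regions described are the H3K36me3 peaks in the centre of chromosome V of Caenorhabditis elegans, the stretch of low meiotic recombination between the arms. A peak was a member if its midpoint lay between positions 5900000 and 16550000 of chromosome V in WormBase WS190 coordinates. Replicate 1 had 451 members among its 5973 peaks (7.55%), and replicate 7 had 446 among 6223 (7.17%). The stretch of 10.65 Mb is 51.0% of chromosome V, and the members were 54.0% and 52.0% of the chromosome V peaks of replicates 1 and 7.

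The study mapped H3K36me3 by ChIP-seq, in which chromatin fragments bound by an antibody are sequenced, in whole worms of the wild-type strain N2 at the third larval stage (L3), grown in liquid culture. It has 2 immunoprecipitations with the Abcam antibody AB9050, numbered 1 and 7 and made with the same antibody lot, and 2 input DNA samples of the same strain and stage. Each immunoprecipitation has its own list of peaks, for which the labels name a different input as control; the inputs have no values of their own here. The lists give each peak a start, an end and a score without any read counts, and the depth of sequencing behind them is unknown. Nothing in the labels says whether the samples came from separate cultures, so differences between the replicates may be technical. Because whole worms were used, a mark carried by few cells and a weaker mark in all cells cannot be told apart.

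H3K36me3 is histone H3 trimethylated at lysine 36, a mark laid down over the bodies of transcribed genes. In yeast the enzyme that places it travels with elongating RNA polymerase II. In C. elegans MET-1 places the mark with transcription, and MES-4 maintains it on genes that were expressed in the parental germ line. Genes with conserved and broadly expressed functions are concentrated in the centres of the autosomes, whereas chromosome V is also known for its large families of chemoreceptor genes.

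The first question was how much of the V centre lay under peaks. Peaks covered 12.4% ± 0.00626 of it (SD, n = 2), with 12.42% in replicate 1 and 12.41% in replicate 7. The centres of chromosomes I to IV, each taken as the middle 50% of its chromosome, had 25.5% ± 0.00701 of their length under peaks. The covered share of the V centre was thus 0.487 ± 0.000379 of theirs (SD, n = 2). In both replicates V had the lowest cover of the 5 autosome centres. Chromosome IV stood next, at 18.8% ± 0.0611, followed by II at 21.9% ± 0.187, I at 31.1% ± 0.0113 and III at 31.8% ± 0.111. The gap between V and IV was many times the spread between replicates, whereas the centres of I and III lay close together.

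The low cover went with fewer peaks more than with narrower ones. Replicate 1 had 42.3 peaks per Mb on the V centre and replicate 7 had 41.9, against 73.8 and 73.6 in the other centres, a ratio of 0.571 ± 0.00361 (SD, n = 2). V centre peaks had a median width of 2495 bp in replicate 1 and 2496 bp in replicate 7, against 2656.5 and 2720 bp in the centres of I to IV, a difference of -192.75 ± 44.2 bp. In replicate 1 the median width on the IV centre, 2453 bp, was below that of V, so V was not the lowest there. In replicate 7 IV had 2569.5 bp and V was the lowest. With peaks within 500 bp joined first, the difference in median width from the other centres was -373 bp. Over the full lists, mean widths differed more than the medians, at 2933 and 2963 bp against 3457 and 3465 bp in the centres of I to IV.

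With 2 replicates, an exact sign-flip permutation test of the V centre against another region cannot go below a two-sided p of 0.5. All 10 comparisons made here, 7 with the other centres and 3 with the V arms, gave this smallest value (exact permutation test, p = 0.5, and 0.5 after Benjamini-Hochberg adjustment), each with the same direction in 2 of 2 replicates. The sizes are therefore read against the spread between replicates, and peaks, windows and chromosomes are not counted as replicates.

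**Figure D1:**
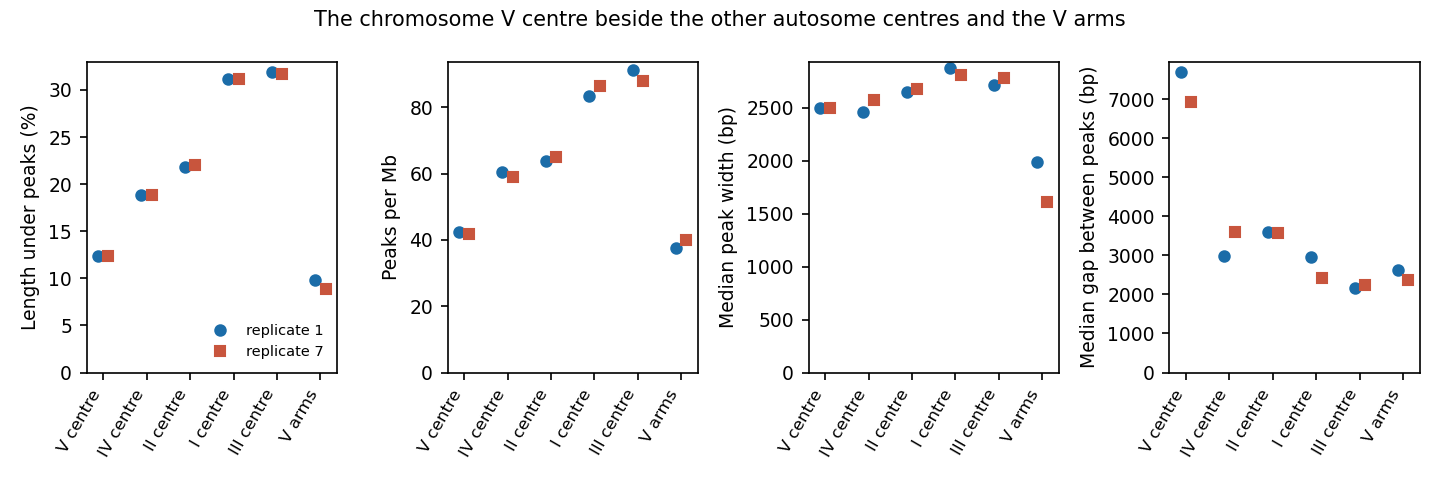
Share of length under peaks (%), peaks per Mb, median peak width (bp) and median gap between neighbouring peaks (bp) in the V centre, the centres of chromosomes IV, II, I and III, and the V arms; circles are replicate 1 and squares replicate 7. The V centre has the lowest cover of the 5 centres, at 12.42% and 12.41%, and the longest median gap, at 7687.5 and 6926 bp, while its median width stays close to that of the other centres.

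Along the V centre, cover was fairly level over most of the length and dropped towards the right end. In steps of 1 Mb from 5.9 Mb, the share under peaks was 13.05% ± 0.512 in the first step, 11.8% ± 0.0400 in the second and 11.7% ± 0.0893 in the third (SD, n = 2 throughout). The steps from 8.9, 9.9 and 10.9 Mb had 12.8% ± 0.0363, 14.7% ± 0.114 and 11.6% ± 0.340. The highest step was 11.9 to 12.9 Mb, with 18.4% ± 0.938, at 19.1% in replicate 1 and 17.8% in replicate 7. The steps from 12.9 and 13.9 Mb had 14.2% ± 0.478 and 13.3% ± 0.0400.

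From 14.9 Mb on the marked share was lower. It was 7.91% ± 0.0887 between 14.9 and 15.9 Mb and 4.05% ± 0.313 in the last 0.65 Mb. The stretch up to 14.9 Mb held 408 and 402 members in replicates 1 and 7, or 45.3 and 44.7 peaks per Mb. The last 1.65 Mb held 43 and 44 members, or 26.1 and 26.7 per Mb. They were fewer per Mb and their median gap was shorter, while the stretch also held the longest gap of the V centre, 235 kb. The median gap was 3038.5 and 3655 bp in the last 1.65 Mb, against 7835 and 7926 bp up to 14.9 Mb. In the last 1.65 Mb, runs of 3 or more peaks with gaps of at most 1000 bp held 11 and 10 members (25.6% and 22.7%). Up to 14.9 Mb they held 47 and 49 (11.5% and 12.2%). The median score of the members in the last 1.65 Mb was 605 and 328, against 1007.79 and 918 up to 14.9 Mb. The place at which the stretch was divided was chosen after its values were seen, so the division is a description with no test.

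In 106 windows of 100 kb, the median share under peaks was 12.2% in replicate 1 and 12.4% in replicate 7, against 24.8% and 24.4% over 306 windows of the other centres. Windows with more than 25% of their length under peaks were few on the V centre, at 4 and 5 of 106 in replicates 1 and 7 (3.77% and 4.72%). In the centres of I to IV they were 148 and 146 of 306 (48.4% and 47.7%). At the low end, 8 and 7 windows of the V centre had no base under a peak (7.55% and 6.60%), against 5 and 5 of 306 in the other centres (1.63% in both). The IV centre held 4 of these 5 in each replicate, among 87 windows (4.60%), while the centres of I and III had 0. The difference in windows without peaks was 5.44 ± 0.667 percentage points (SD, n = 2), and it depends on how the windows are drawn. It was 1.25 with the V centre as the middle 50% of its chromosome, 3.37 with the V centre ending where the sparse stretch from 14.9 Mb begins, 12.1 with windows of 50 kb, 13.2 with the upper 50% of peaks by score, and 0 with windows of 200 kb. The 11 windows with the highest cover held 22.0% of it in replicate 1 and 21.7% in replicate 7, and 30 windows were needed to hold 50% in each. No such shares are given for the other centres. Relative to its mean, cover varied more between windows on the V centre than in any other autosome centre. The SD of window cover divided by its mean was 0.633 and 0.630 in replicates 1 and 7. In the other 4 centres it ran from 0.348 (I) to 0.604 (IV) in replicate 1 and from 0.370 (I) to 0.597 (IV) in replicate 7.

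The 3 windows with the highest cover were the same in both replicates. The window from 15 to 15.1 Mb had 35.1% of its length covered in replicate 1, and 31.1% in replicate 7. It had 11 members in each list and stands in the sparse right end. The window from 11.9 to 12 Mb had 33.8% and 31.6%, with 11 and 9 members. The window from 7.2 to 7.3 Mb had 32.2% and 30.1%, with 7 members in each.

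Neighbouring windows could differ sharply. The window at 7.3 to 7.4 Mb, directly after one of the 3 highest, was without a single covered base in both replicates. Across the V centre, the covered share of a window and that of the next correlated with a Pearson's r of 0.06 in replicate 1 and 0.02 in replicate 7, a description over windows that share a library and a chromosome. In the other centres r ran from -0.21 (II) to 0.12 (IV) in replicate 1 and from -0.19 (II) to 0.15 (IV) in replicate 7, so low values were not particular to V. The other windows without peaks in both replicates started at 9, 11.4, 14.2, 15.9, 16.2 and 16.4 Mb, so 3 of these 7 lay in the last 0.65 Mb. A further window, from 13.2 to 13.3 Mb, had none in replicate 1 and 1 peak over 2.03% of its length in replicate 7. Such a window had no region above the authors' calling threshold, which leaves weaker marking possible.

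**Figure D2:**
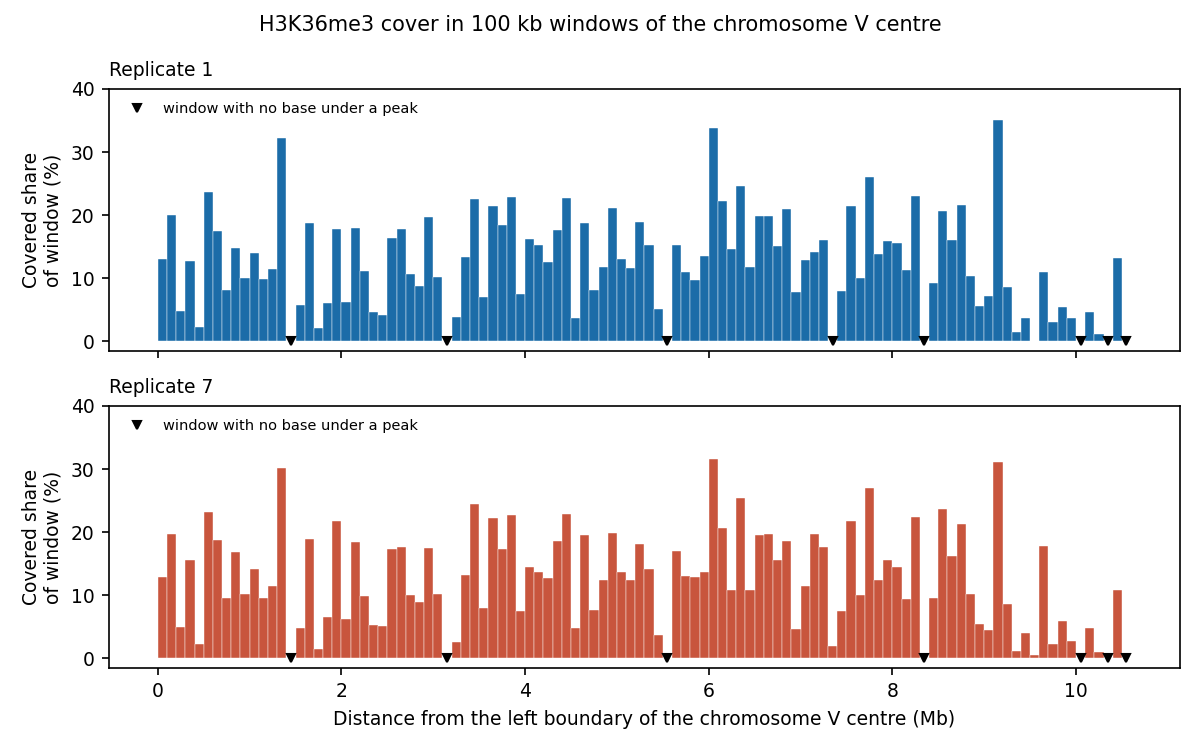
Share of each 100 kb window under H3K36me3 peaks (%) along the V centre, with distance from its left boundary in Mb; bars are windows, the upper panel is replicate 1, the lower replicate 7, and triangles mark windows with no base under a peak. Both panels show 3 windows above 30% (35.1, 33.8 and 32.2% in replicate 1), windows without cover between marked ones, and the sparse right end.

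Member peaks had widths from 615 to 15303 bp in replicate 1 and from 954 to 15333 bp in replicate 7. The interquartile range was 1570 to 3791 bp in replicate 1 and 1590.5 to 3658 bp in replicate 7. Wide peaks were less frequent than in the other centres. Peaks over 5 kb made up 10.4% and 11.7% of the members in replicates 1 and 7 (47 and 52 peaks), against 19.5% and 18.2% of the peaks in the centres of I to IV. They held 24.6% and 27.1% of the covered length of the members, against 43.2% and 39.9% in the other centres. Members over 10 kb numbered 3 in each replicate, or 0.665% and 0.673% of the members, against 2.95% and 2.82% in the other centres.

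The 3 widest members were the same in both lists, with nearly the same edges. The widest was 15.3 kb, from 9774418 to 9789720 in replicate 1 and from 9774523 to 9789855 in replicate 7. The second was 12.2 kb in replicate 1 (11902618 to 11914861) and 12.6 kb in replicate 7 (11902663 to 11915303), in one of the 3 windows of highest cover. The third was 10.4 kb (12041537 to 12051929) and 10.5 kb (12041428 to 12051938). Each of the 3 stood alone, with no other peak within 1000 bp in its list.

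The authors' score followed width closely among members. Spearman's rho between them was 0.88 over the 451 peaks of replicate 1, and 0.86 over the 446 of replicate 7. What the score measures is not stated, so it is used within a list. The second widest peak departed from this relation, with scores of 764 in replicate 1 and 2244 in replicate 7, while the widest had 3100 and 2971 and the third had 3100 in both. By score, the median member stood at percentile 53.8 of the replicate 1 list and at percentile 57.4 of the replicate 7 list, against percentiles 60.7 and 63.8 for peaks in the centres of I to IV. Exactly 3100 was the score of 64 and 66 members, so the ranking of peaks at or above it should not be read closely.

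The highest-scoring members of replicate 1 lay at 13038487 to 13041647 (score 3233.06), 8008863 to 8014067 (3219.26) and 5940011 to 5943606 (3210.39). In replicate 7 they were 10965611 to 10968218 (3219.26), then the third widest peak named above and 8460826 to 8470597, both with the score 3100. Each of these 6 entries overlapped the other list, which covered 93.4 to 100% of its length. The peak at 8460826 to 8470597 in replicate 7 was divided between 2 peaks in replicate 1.

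Spacing set the V centre apart from the other centres. Neighbouring members lay a median of 7687.5 bp apart in replicate 1 and 6926 bp in replicate 7, against 2820.5 and 2707 bp in the centres of I to IV. The difference was 4543 ± 458 bp (SD, n = 2), and V had the longest median gap of the 5 centres in both replicates. Next were II in replicate 1 (3607 bp) and IV in replicate 7 (3610 bp), whose order changed between the replicates. With the upper 50% of each list by score the difference was 14047 bp (21703 against 6995.5 bp in replicate 1, 19235 against 5848 bp in replicate 7). With peaks within 500 bp joined it was 6906.5 bp (13712.5 against 5470 bp, and 11594 against 6023.5 bp). Both settings lengthened the median gap in V and in the other centres, so a larger difference in bp is not by itself a larger contrast.

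Gaps of at most 1000 bp made up 24.9% of 450 gaps in replicate 1 and 24.5% of 445 in replicate 7, against 34.3% and 35.5% in the other centres. Gaps over 10 kb made up 45.6% and 43.4% in replicates 1 and 7, against 29.1% and 28.7%. Members with more than 10 kb of unmarked sequence on both sides numbered 83 of 451 in replicate 1 (18.4%, exact Clopper-Pearson 95% interval 14.9 to 22.3%) and 75 of 446 in replicate 7 (16.8%, 13.5 to 20.6%). In the other centres they were 7.75% (6.68 to 8.92%) and 7.41% (6.37 to 8.57%). The intervals allow for counting error alone, as if peaks were independent, which neighbours are not.

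Gaps over 50 kb numbered 57 in each replicate and took up 45.6% and 47.1% of the V centre, against 18.7% and 20.0% of the other centres. In the V arms such gaps took up more, at 65.7% and 67.8% of the length (57 and 59 gaps). The longest gap was 235 kb, from 16122927 to 16357538 in replicate 1 and from 16122804 to 16357501 in replicate 7. The second was 208 kb in replicate 1 (7241655 to 7449910) and 225 kb in replicate 7 (7241746 to 7466297). It follows the heavily covered window at 7.2 Mb and ends earlier in replicate 1, at a peak of 867 bp (7449911 to 7450777, score 146) that has no partner in replicate 7. The third was 167 kb in replicate 1 (8962784 to 9129652) and 212 kb in replicate 7 (8963185 to 9175670).

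**Figure D3:**
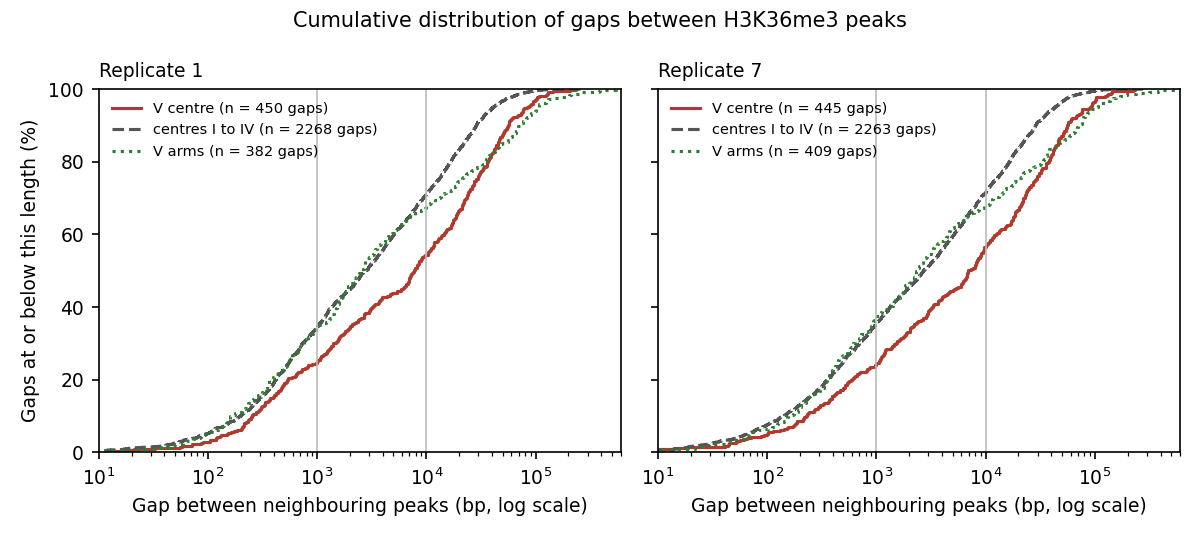
Cumulative share (%) of the gaps between neighbouring peaks against gap length (bp, log scale), for the V centre, the centres of I to IV and the V arms, with replicate 1 on the left and replicate 7 on the right; grey lines mark 1000 and 10000 bp. At 10000 bp the V centre curve lies lowest, since 45.6% and 43.4% of its gaps are longer, against 29.1% and 28.7% in the other centres and 32.2% and 31.8% in the V arms.

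A run was defined as neighbouring peaks with gaps of at most 1000 bp. On the V centre most members stood alone: 251 in each replicate, or 55.7% and 56.3% of the members, against 43.4% and 42.3% of the peaks in the other centres. Pairs held 142 and 136 members (31.5% and 30.5%), close to the 28.6% and 28.3% in the other centres. Runs of 3 or more peaks held 58 members in 17 runs in replicate 1 and 59 in 18 runs in replicate 7. That was 12.9% and 13.2% of the members, against 28.0% and 29.4% in the other centres, a difference of -15.7 ± 0.688 percentage points (SD, n = 2). V had the lowest share of the 5 centres in both replicates. With peaks within 500 bp joined first, the shares were 1.64% and 0.817% against 5.59% and 4.58%, a difference of -3.85 points. A gap limit of 500 bp gave 8.43% and 7.40% against 13.4% and 14.9%, a difference of -6.25 points. Both settings made such runs rarer in V and in the other centres, so a smaller difference in points is not by itself a weaker contrast.

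The longest run had 5 peaks in each list. In the other centres together, with 2272 and 2267 peaks, the longest had 8 and 10, and in the IV centre alone 5 and 6. In replicate 1 the longest run of the V centre spanned 16.2 kb from 6421947 to 6438120, where replicate 7 had a run of 4 peaks from 6421980 to 6438206. In replicate 7 it spanned 17.5 kb from 7571753 to 7589244, where replicate 1 had 4 peaks from 7571713 to 7589275. The third run by rule was 7224863 to 7241654 in replicate 1, with 4 peaks just before the gap of 208 kb, and 9334655 to 9346985 in replicate 7, with 4 peaks. Peaks in runs of 3 or more had a median width of 2265.5 and 2386 bp in replicates 1 and 7, against 2449 and 2424 bp for members standing alone. Members in pairs had the widest medians, at 2611 and 2575 bp, so width did not fall steadily with run size. The widths of adjacent members were nearly unrelated, with a Spearman's rho of 0.01 over 450 adjacent pairs in replicate 1 and 0.03 over 445 in replicate 7. The centres of I to IV were alike in this, with 0.02 and 0.03.

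**Figure D4:**
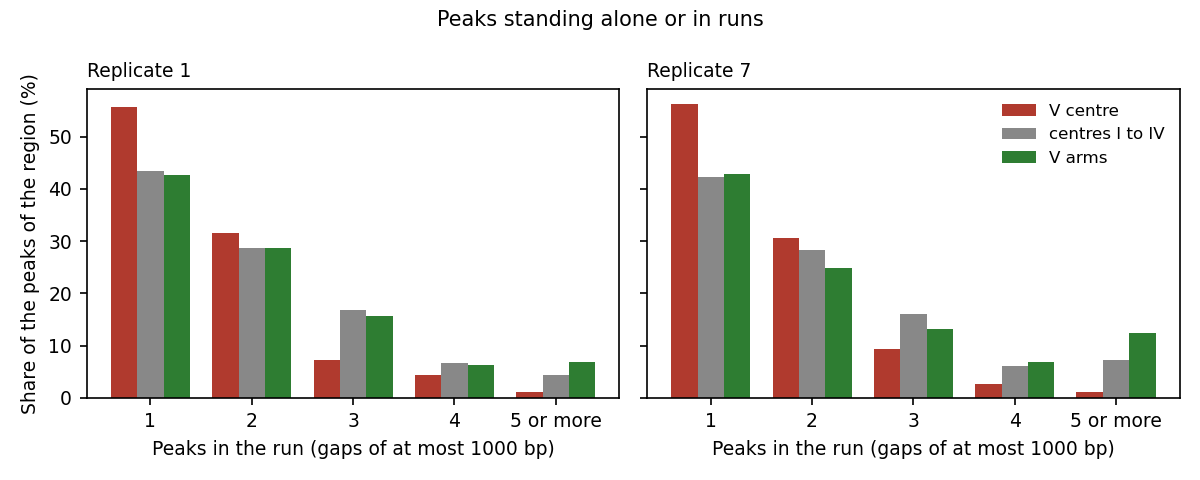
Share (%) of the peaks of the V centre, the centres of I to IV and the V arms that stood alone or in runs of 2, 3, 4 and 5 or more peaks with gaps of at most 1000 bp; replicate 1 is on the left and replicate 7 on the right. Members standing alone made up 55.7% and 56.3% on the V centre, and runs of 3 or more were rarer there than in either other region.

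Over the full lists, the arms of chromosome V were close to its centre in peaks per Mb, and their peaks were placed differently. In replicate 1 the centre had 42.3 peaks per Mb and the arms 37.5, and in replicate 7 the centre had 41.9 and the arms 40.1, a ratio of 1.09 ± 0.0608 (SD, n = 2). With the upper 50% of peaks by score the ratio was 1.60 (1.51 in replicate 1 and 1.70 in replicate 7), so how close the densities were depends on which peaks are counted. The mean gap was also similar, at 20689 and 20923 bp in the centre and 23414 and 22662 bp in the arms. The median gap was 7687.5 and 6926 bp in the centre, however, against 2625.5 and 2370 bp in the arms, a difference of 4809 ± 358 bp. Runs of 3 or more held 12.9% and 13.2% of the centre peaks and 28.6% and 32.4% of the arm peaks, a difference of -17.5 ± 2.37 percentage points. Each arm by itself varied more between replicates. Such runs held 23.6% and 36.9% of the left arm peaks and 34.7% and 25.2% of the right arm peaks, all above the centre. These changes went in opposite directions and partly cancel in the pooled arms. With the upper 50% of peaks by score the median gaps were 21703 and 19235 bp in the centre, against 18211 and 16853 bp in the arms. The difference, 2937 bp, was then small beside the gaps themselves, so this contrast also depends on which peaks are counted. The difference in runs was -3.47 points with peaks within 500 bp joined and -8.84 with a gap limit of 500 bp. Both settings made such runs rarer in both regions.

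Gaps were also less uneven in the V centre than in the V arms. The SD of the gaps divided by their mean was 1.48 and 1.54 in the V centre in replicates 1 and 7, against 2.31 and 2.36 in the V arms. The other 4 autosome centres lay between 1.53 and 1.81 in replicate 1 and between 1.57 and 1.80 in replicate 7. The lowest of them, chromosome II, had 1.53 and 1.57, which differs from V by no more than the spread between replicates. Windows without peaks numbered 8 and 7 of 106 in the V centre and 22 and 22 of 102 in the V arms. The centre peaks were also wider, with medians of 2495 and 2496 bp against 1985 and 1612 bp in the arms, where the replicates differed more.

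The replicates placed the members alike. In replicate 1, 419 of 451 members overlapped a replicate 7 peak by at least 1 bp (92.9%, exact Clopper-Pearson 95% interval 90.1 to 95.1%), against 89.6% of the whole list. In replicate 7, 422 of 446 members overlapped a replicate 1 peak (94.6%, 92.1 to 96.5%), against 94.8% of the whole list. Both shares are near those of the whole lists and of the centres of I to IV, at 93.0% and 95.8%. The difference from those centres, -0.644 ± 0.773 percentage points (SD, n = 2), was within the spread between replicates and changed sign under a reciprocal 50% overlap (1.33) and with the upper 50% of peaks (0.255). Sequence covered in both replicates came to 1.21 Mb, or 84.5% of what either covered, against 87.7% in the other centres. Over the 106 windows, Pearson's r and Spearman's rho between the covered shares of the replicates were both 0.98, and the median absolute difference was 0.66 percentage points.

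Where 1 member matched 1 peak of the other list (364 pairs), the edges lay close. The median distance was 97 bp between starts and 97.5 bp between ends, and the width in replicate 7 divided by that in replicate 1 had a median of 1.01 and an interquartile range of 0.955 to 1.07. Spearman's rho between the scores was 0.92 over these pairs, and 0.88 over the 296 pairs below 3100 in both lists. In replicate 1, 23 members (5.10%) were split over 2 or more replicate 7 peaks, and in replicate 7, 18 members (4.04%) were split over 2 or more replicate 1 peaks. In the centres of I to IV such peaks made up 7.35% and 5.60%.

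Members without a partner were narrow and low in score, as were such peaks in the centres of I to IV. Those had median widths of 1091 and 1394 bp, median scores of 83.4 and 89.7 and scores up to 536 and 522 in replicates 1 and 7. The 32 members of replicate 1 had a median width of 1072 bp, a median score of 106 and scores up to 313. The 24 members of replicate 7 had a median width of 1408 bp, a median score of 98.2 and scores up to 338. In the lowest 25% of member scores, 72.6% of replicate 1 members (95% interval 63.4 to 80.5%) and 79.5% of replicate 7 members (70.8 to 86.5%) had a partner. Of the 226 members of replicate 1 and 223 of replicate 7 in the upper 50% of member scores, all had one. These shares by score are given for members only, so they do not set the V centre apart from other regions. The widest and highest-scoring member without a partner was 12107447 to 12110075 in replicate 1 (2629 bp) and 15505629 to 15509316 in replicate 7 (3688 bp). They lay 3862 and 2559 bp from the nearest peak of the other list.

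The runs were less alike than the peaks. Of 17 runs of 3 or more in replicate 1, 8 overlapped such a run in replicate 7, and of 18 in replicate 7, 8 overlapped one in replicate 1. At every one of these runs the other list had at least 2 peaks, and it covered on average 81.0% of the replicate 1 runs and 89.7% of the replicate 7 runs. Most of the sequence was thus marked in both lists, while the number of peaks in a run could differ. Of the peaks in these runs, 52 of 58 in replicate 1 and 56 of 59 in replicate 7 had a partner. At 11976734 to 11984597, for example, replicate 1 had a run of 4 peaks and replicate 7 a run of 3. This locus counts among the 8 that overlapped, although the first peak of replicate 1 (961 bp, score 114) had no partner. This example was chosen after its values were seen.

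The window in which the replicates differed most was 15.5 to 15.6 Mb, with 11.0% under peaks in replicate 1 and 17.8% in replicate 7. It holds the replicate 7 peak of 3688 bp without a partner named above and a second one, of 1055 bp (15589006 to 15590060, score 57.1). The next was 13 to 13.1 Mb, with 14.2% in replicate 1 and 19.7% in replicate 7, where replicate 7 had a peak of 2773 bp without a partner (13029057 to 13031829, score 223). These were the 2 windows of 106 in which the replicates differed by more than 5 percentage points. Cover was higher in replicate 1 in 50 windows and higher in replicate 7 in 49.

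At the left boundary of the V centre the nearest peaks were alike in both lists. The first member was 5913783 to 5917783 in replicate 1 (4001 bp, score 3100) and 5913737 to 5917792 in replicate 7 (4056 bp, score 3048). The last peak outside was 5839644 to 5842865 in replicate 1 (3222 bp, score 1231) and 5840123 to 5843040 in replicate 7 (2918 bp, score 1260). At the right boundary the last member was 16543190 to 16546401 in replicate 1 (3212 bp, score 663) and 16544831 to 16546017 in replicate 7 (1187 bp, score 202). The next peak outside was 16785992 to 16787633 in replicate 1 (1642 bp, score 375) and 16553227 to 16554565 in replicate 7 (1339 bp, score 186).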

How the data were processed

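Per the labels' protocols, worms were frozen, ground, crosslinked for 10 minutes in 1% formaldehyde and sonicated, and libraries of 250 to 500 bp fragments were amplified with 18 PCR cycles. The authors deposited 1 peak list per immunoprecipitation, each with a score per peak whose meaning is not stated. Peak start and end are 1-based WormBase WS190 positions, per the file headers. Peak names carry MACS and the source column reads MA2C. BWA is named in the submitters' processing notes. Versions and settings were not given in the sources used here.

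Cover counts the bases of a region under any peak. Peaks were placed by midpoint, and windows were tiled from the left boundary, leaving out a partial last window. The end of the last peak in either list stood for the length of a chromosome. The V arms are all of V outside the centre. Replicates were analysed separately. The members and lists were chosen with earlier results of these data known. The regions named are, per replicate, the 3 widest and 3 highest-scoring members (ties by width), the 3 longest gaps, the 3 runs with most peaks, the 3 windows of highest cover, windows without cover, the widest and highest-scoring members without a partner, and the peaks at the boundaries. The comparison with the V arms was added after the data were seen. Genes are not named, since the gene table used here is on another assembly. Code was tested on simulated data and run in Python 3.11.15 with numpy 2.4.6, pandas 2.3.3, scipy 1.17.1 and matplotlib 3.10.9.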

Additional observations from a re-analysis of the deposited data

How the results depend on the processing

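Cover of the V centre stayed below that of the centres of I to IV under each alternative run, at a ratio of 0.441 to 0.53, and so did peaks per Mb, at 0.512 to 0.612. With the upper 50% of peaks by score the ratios were 0.453 and 0.512, the differences were -241 bp in median width, 14047 bp in median gap, -16.9 points in runs, 13.2 in empty windows and 0.255 in overlap (reversed), and the window correlation was 0.96. Against the V arms this setting gave 1.60 in peaks per Mb, 2937 bp and -13.8 points. The V centre as the middle 50% gave ratios of 0.51 and 0.597, -16.7 points in runs and 1.25 in empty windows, and 1.19, 5393 bp and -20.4 points against the arms. Other centres as the middle 40% gave ratios of 0.477 and 0.559. Joining peaks within 500 bp gave 0.612 in peaks per Mb, -373 bp in width, 6906.5 bp in gap and -3.85 points in runs, and 1.18, 6966 bp and -3.47 points against the arms. A run gap limit of 500 bp gave -6.25 points, and -8.84 against the arms. Windows of 50 and 200 kb gave 12.1 and 0 points in empty windows, and reciprocal 50% overlap gave 1.33 (reversed).

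Chosen after seeing the data, the V centre without its sparse right end gave ratios of 0.53 and 0.61, -131 bp, 5117 bp, -16.9 points in runs and 3.37 in empty windows, and 1.16 and 5383 bp against the arms. Without chromosome I, II, III or IV the ratio of cover was 0.524, 0.465, 0.524 or 0.441 and that of peaks per Mb 0.601, 0.548, 0.609 or 0.531. Without I the width difference was -144.5 bp; without III runs differed by -14.2 points; without IV the values were -238.5 bp, -16.7 points in runs and 6.62 in empty windows. The cause was not tested for any of them.

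Leaving out each replicate gave ratios of 0.486 to 0.487 in cover and 0.569 to 0.574 in peaks per Mb, -224 to -161.5 bp in width, 4219 to 4867 bp in gap, -16.1 to -15.2 points in runs, 4.97 to 5.91 in empty windows and -1.19 to -0.0971 in overlap; against the arms it gave 1.04 to 1.13, 4556 to 5062 bp and -19.1 to -15.8 points. With 2 replicates these 20 values lie within 1 SD of the mean by construction and say nothing about stability. Of the other 84 alternative values, 31 moved by less than the SD between replicates (for the correlation, agreed to 2 decimals), 51 moved by more and 2 reversed. No paired analysis was possible because only immunoprecipitations, all of 1 group, have lists here, so replicate numbers pair no samples across groups; regions were compared within each replicate. Without counts, nothing below the authors' threshold can be compared.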
